A study of Mus musculus with 16 samples.

Results

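Transitional type 1 (T1) B-cells, the youngest B-cells of the spleen, were compared with mature follicular (FO) B-cells across all measured genes, and the position of transitional type 2 (T2) cells between these ends was described. The groups compared were set by the developmental stage in the sample labels and not by any measured value. The comparison itself was chosen with earlier results of these data known. It uses 8 of the 16 mRNA libraries of the series, 4 of T1 and 4 of FO cells, with the 4 T2 libraries as the stage between them. Each stage holds 2 libraries of wild-type (WT) C57BL/6 mice and 2 of C57BL/6 mice with a germline deletion of the microRNA gene Mir146a (Mir146a-/-, called KO), none of them treated. The labels give no age for the sorted mice. Each library came from spleens pooled from several mice and sorted by flow cytometry, so that a replicate is a pool and not a mouse. T1 cells were sorted as CD23- AA4+ IgM-high CD21-/low, T2 cells as CD23+ AA4+ IgM-high CD21-low and FO cells as CD23+ AA4- IgM-low CD21-intermediate. The gate on AA4 and CD23 fixed the levels of both proteins between T1 and FO cells in advance.

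B-cells leave the bone marrow as immature cells that carry surface IgM and die unless they receive survival signals in the spleen. T1 cells still hold features of bone marrow B-cells and are removed when they bind self antigen, whereas T2 cells have entered the follicle, and FO cells recirculate between blood, spleen and lymph nodes. FO cells present antigen to T cells on MHC class II and find the follicle through chemokine receptors. The comparison asks which genes separate the ends of this path and how far a T2 cell has gone along it.

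Depth differed by stage. The T1 libraries held 11170244 to 14443131 reads, the T2 libraries 9003343 to 14056567 and the FO libraries 22348074 to 26386684, so depth and stage cannot be told apart for FO cells. Levels are RPKM, reads scaled to exon length and to the mapped reads of the library, and differences are log2(RPKM + 0.5), a scale that understates the change of low genes. Values of 4 libraries are given in the order WT replicate 1, WT replicate 2, KO replicate 1 and KO replicate 2. In whole sorted populations, fewer cells of a type and less RNA per cell cannot be told apart. Both T1 replicate 2 libraries stood apart from both T1 replicate 1 libraries. Immunoglobulin genes took 3.05%, 8.57%, 4.43% and 10.3% of the reads of the 4 T1 libraries, 1.40% to 1.48% in T2 and 1.11% to 1.23% in FO. The summed level of 20 macrophage and monocyte markers was 24.8, 98.4, 33.8 and 159 RPKM in T1, 69.5 to 129 RPKM in T2 and 14.4 to 32.6 RPKM in FO. Fits without both T1 replicate 2 libraries, and without both T1 replicate 1 libraries, are therefore given beside values that moved with these libraries.

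**Figure D1:**
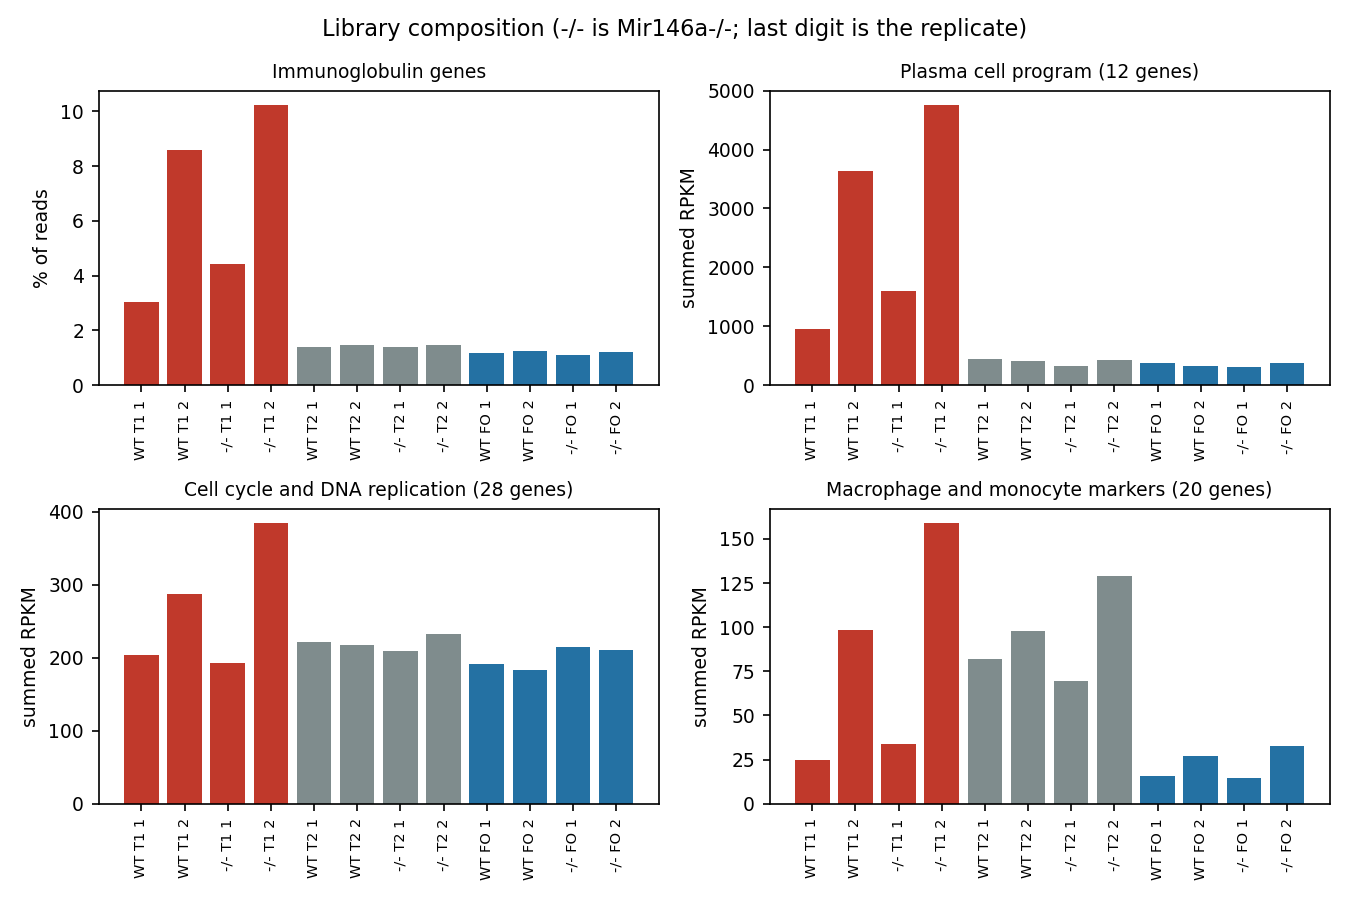
Bars give 1 library each (T1 red, T2 grey, FO blue): the percent of reads on immunoglobulin genes, and the summed RPKM of 3 gene lists. Both T1 replicate 2 libraries are the highest of the 12 for immunoglobulin (8.57% and 10.3%), the plasma cell program (3629 and 4764 RPKM) and the cell cycle list (287 and 384 RPKM), while macrophage markers are also high in T2.

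The genes behind the sort followed the labels. Cd93, which encodes AA4, stood at 29.3, 35.4, 36.4 and 26.6 RPKM in T1, at 15.4, 10.9, 13.3 and 6.66 RPKM in T2 and at 2.42, 2.55, 1.17 and 2.48 RPKM in FO. Fcer2a, which encodes CD23, stood at 30.2, 47.7, 30.4 and 56.4 RPKM in T1 and at 719, 751, 622 and 652 RPKM in FO. Its T2 libraries, at 604 to 712 RPKM, overlapped the FO range and lay far above T1. T2 cells were sorted as CD23+, a gate on the protein. Cr2, which encodes the complement receptor CD21, averaged 25.3 ± 4.62 RPKM in T1 and 199 ± 27.5 RPKM in FO (SD, n = 4). No library went against its label for these genes.

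FO and T1 cells differed at many genes in both directions. Of 11685 genes tested, 536 were higher in FO cells (4.59% of the genes tested) and 635 were lower (5.43%), 1171 in all (10%), at an adjusted p under 0.05, a difference of more than 2-fold and a mean above 1 RPKM in T1 or FO. The libraries of both stages did not overlap for 1100 of the 1171 called genes, beside 5285 of all 11685 tested (45.2%). Beyond 8-fold, 23 genes were higher and 62 were lower in FO. Of the 635 lower genes, 163 were V, D or J segments of immunoglobulin genes, and without such segments 535 genes were higher and 472 lower. Without both T1 replicate 2 libraries 733 genes were higher and 635 lower, of which 498 and 528 are among those called with all libraries. No gene was called in opposite directions by the fits with and without them. The fit without both T1 replicate 1 libraries gave 449 higher and 785 lower genes. Counts of list members stand beside the shares of 4.59% higher and 5.43% lower over all genes tested.

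**Figure D2:**
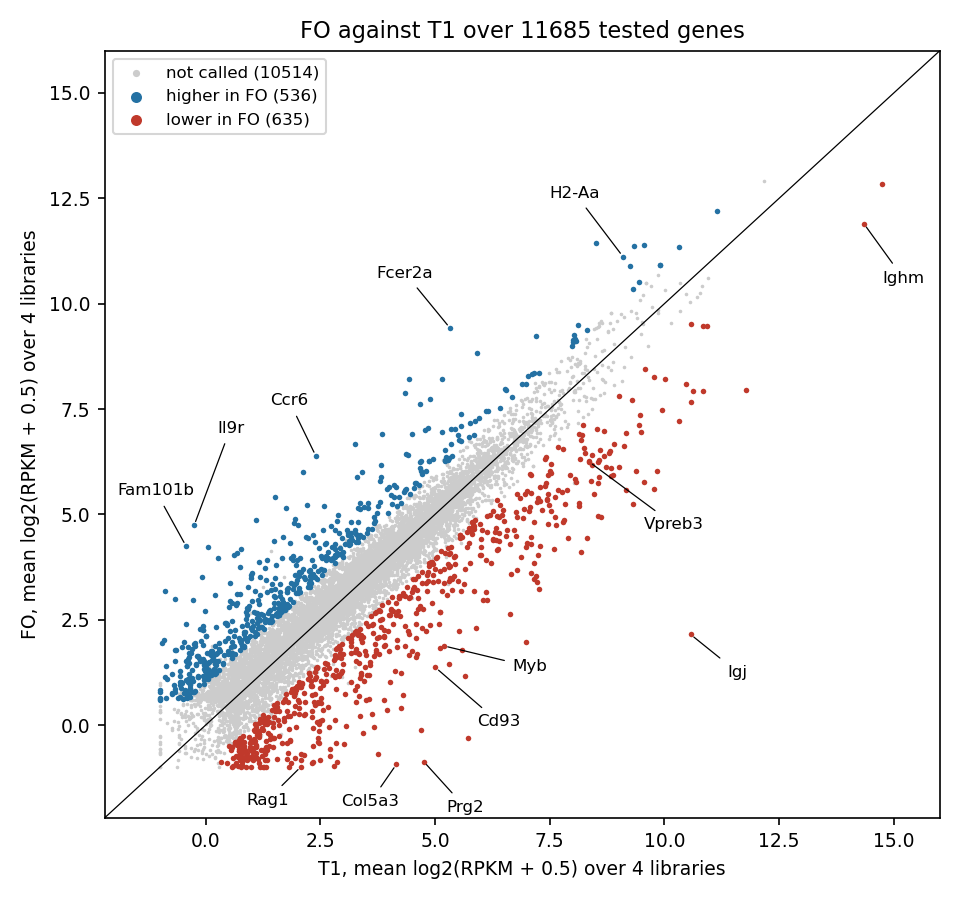
Each point is 1 of the 11685 tested genes at its mean log2(RPKM + 0.5) in T1 (horizontal) and in FO (vertical), over 4 libraries each, with the line of equality. The 536 genes called higher in FO (blue) and the 635 called lower (red) lie on either side of it, with Il9r and Igj far from the line.

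The called genes had the same direction in both genotypes. They were called on WT and KO libraries together, which favors a shared sign, so this agreement is a description and no separate evidence. All 1171 had the same sign within WT and within KO libraries. Within WT 472 genes were called higher and 509 lower, and within KO 469 and 526. Of these, 378 higher and 431 lower genes were called within both. The test of a different T1 to FO change between genotypes called 0 genes (0% of those tested) with limma, with a smallest adjusted p of 0.19. At an unadjusted p under 0.05 it held 80 genes (0.685%). With no true difference a calibrated test would put a fraction near 0.05 of the genes there. The test was therefore conservative, and its 0 calls say little about genotype. A limma-voom fit on reads recovered from the RPKM steps also called 0 genes. Leaving out WT T1 replicate 1 gave 1 gene, and leaving out the KO library of that number gave 3. A p that misses the threshold does not show that the genotypes act alike, and each genotype has 2 libraries per stage.

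Several of the largest rises from T1 to FO were in genes nearly silent in T1. Il9r, the receptor of interleukin-9 (chr11:32187541-32200279, minus strand, GRCm38), held 0.145, 0.422, 0.127 and 0.84 RPKM in T1, 6.38, 16.9, 5.97 and 13.2 RPKM in T2 and 23.7, 41.2, 22.7 and 21.1 RPKM in FO. The 3 stages did not overlap, and FO exceeded T1 by 4.99 ± 0.37 (log2, SE; adjusted p = 3.09e-06). Fam101b, a gene for an actin regulator (refilin B), went from 0.0908, 0.348, 0.127 and 0.473 RPKM in T1 to 16.2, 16.3, 20.9 and 21.1 RPKM in FO (4.68 ± 0.21, adjusted p = 2.97e-07). Crip3, a LIM-domain gene, had 0 to 2 reads in a T1 library and 298 to 352 in an FO library. Its T1 level therefore rests on a handful of reads. Shank1, a scaffold gene best known from synapses, stood at 0.0961 to 0.165 RPKM in T1 and 6.72 to 8.63 RPKM in FO (3.65 ± 0.27), and its T2 libraries, at 0.616 to 2.69 RPKM, had covered a share of 0.45 of the log2 distance.

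Receptors and signaling genes filled most of the other top places. Ccr6, a chemokine receptor that draws B-cells to mucosal and follicular sites (chr17:8236043-8257141, plus strand), held 4.91, 5.5, 4.72 and 4.1 RPKM in T1 and 75.7, 81.5, 105 and 73.9 RPKM in FO. Among the 12 largest rises it had the smallest error, with a log2 difference of 3.99 ± 0.14 (adjusted p = 1.76e-07). Gpr174, a lysophosphatidylserine receptor, reached 38.4 to 48.3 RPKM in FO from 1.17 to 3.91 RPKM in T1. Plaur, the urokinase receptor, rose by 3.89 ± 0.36, Stat4, a transcription factor of cytokine signaling, by 3.76 ± 0.25, Pglyrp2, a peptidoglycan-cleaving amidase, by 4.18 ± 0.23, and Crisp3, a cysteine-rich secretory protein, by 3.68 ± 0.19. The largest rises were picked among called genes whose T1 and FO libraries did not overlap, so lack of overlap adds nothing for these genes.

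The falls opened with a gene of antibody secretion and went on with genes of other kinds. Igj, the joining chain of secreted IgM and IgA (chr5:88519809-88527891, minus strand), stood at 428, 2799, 1148 and 3876 RPKM in T1, at 38.5, 36.3, 21.2 and 28.1 RPKM in T2 and at 1.96, 3.6, 3.72 and 8.63 RPKM in FO. Its log2 difference was the largest in size among the 11685 tested genes (-8.42 ± 0.60, adjusted p = 2.75e-06). Both T1 replicate 2 libraries were the highest, and without them the difference was -7.30 ± 0.49 (adjusted p = 1.35e-05). Prg2, a granule protein gene also known from plasma cells, held 9.7, 81.3, 11.3 and 53 RPKM in T1 and at most 0.107 RPKM in FO (-5.62 ± 0.82). Its difference was -4.32 ± 0.81 without both T1 replicate 2 libraries (adjusted p = 0.00271).

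A second set of falls had the opposite order within T1, with both replicate 1 libraries highest. Col5a3, a collagen chain gene, stood at 22.4, 12.3, 25.1 and 13 RPKM in T1, at 0.449 to 1.14 RPKM in T2 and at 0.0178 to 0.0394 RPKM in FO (-5.09 ± 0.25, adjusted p = 3.13e-07). Cplx2, a complexin of vesicle release, fell from 31.9, 20.3, 35 and 18.7 RPKM to 0.372 to 0.45 RPKM (-4.82 ± 0.28). Rapgefl1, Gas7, Serinc5, Slamf9 and 1100001G20Rik shared this order, with differences from -3.76 ± 0.22 for Gas7 to -6.02 ± 0.41 for 1100001G20Rik. Slamf9 belongs to the SLAM family of surface receptors and Serinc5 to a family of membrane proteins that carry lipids. Slpi, a secreted protease inhibitor (-3.71 ± 0.40), did not share it.

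Most tested genes of the immature B-cell program were lower in FO. Of 16 genes of recombination, the surrogate light chain and early B-cell identity, 8 were tested, and 6 of them were lower and 0 higher in FO (median log2 difference -2.03, against 0.08 over all tested genes). The 6 include Cd93, whose protein AA4 was part of the gate. Rag1, which cuts DNA in antigen receptor recombination (chr2:101638282-101649501, minus strand), held 4.74, 2.69, 5.8 and 2.53 RPKM in T1 and 0.134 to 0.302 RPKM in T2. Over the FO libraries together it had 3 reads, against 1309 in T1, a ratio of 813 per mapped read (95% counting interval 277 to 3946). Vpreb3, a chaperone of early B-cell receptor assembly, stood at 395, 271, 389 and 276 RPKM in T1 and at 66.9 to 81.6 RPKM in FO (-2.11 ± 0.13). Myb, a transcription factor of progenitors, went from 33, 36.5, 37.1 and 37.7 RPKM to 1.87 to 4.03 RPKM (-3.31 ± 0.19, adjusted p = 5.91e-07). Sox4, which acts in pro-B cells, was lower by 1.85 ± 0.27 (log2) and Arid3a, an activator of the heavy chain locus, by 1.95 ± 0.09. The surface glycoprotein gene Cd24a, a common label of immature B-cells, stood at 1220.2, 933, 1139 and 892 RPKM in T1 and at 279.8 to 311 RPKM in FO.

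**Figure D3:**
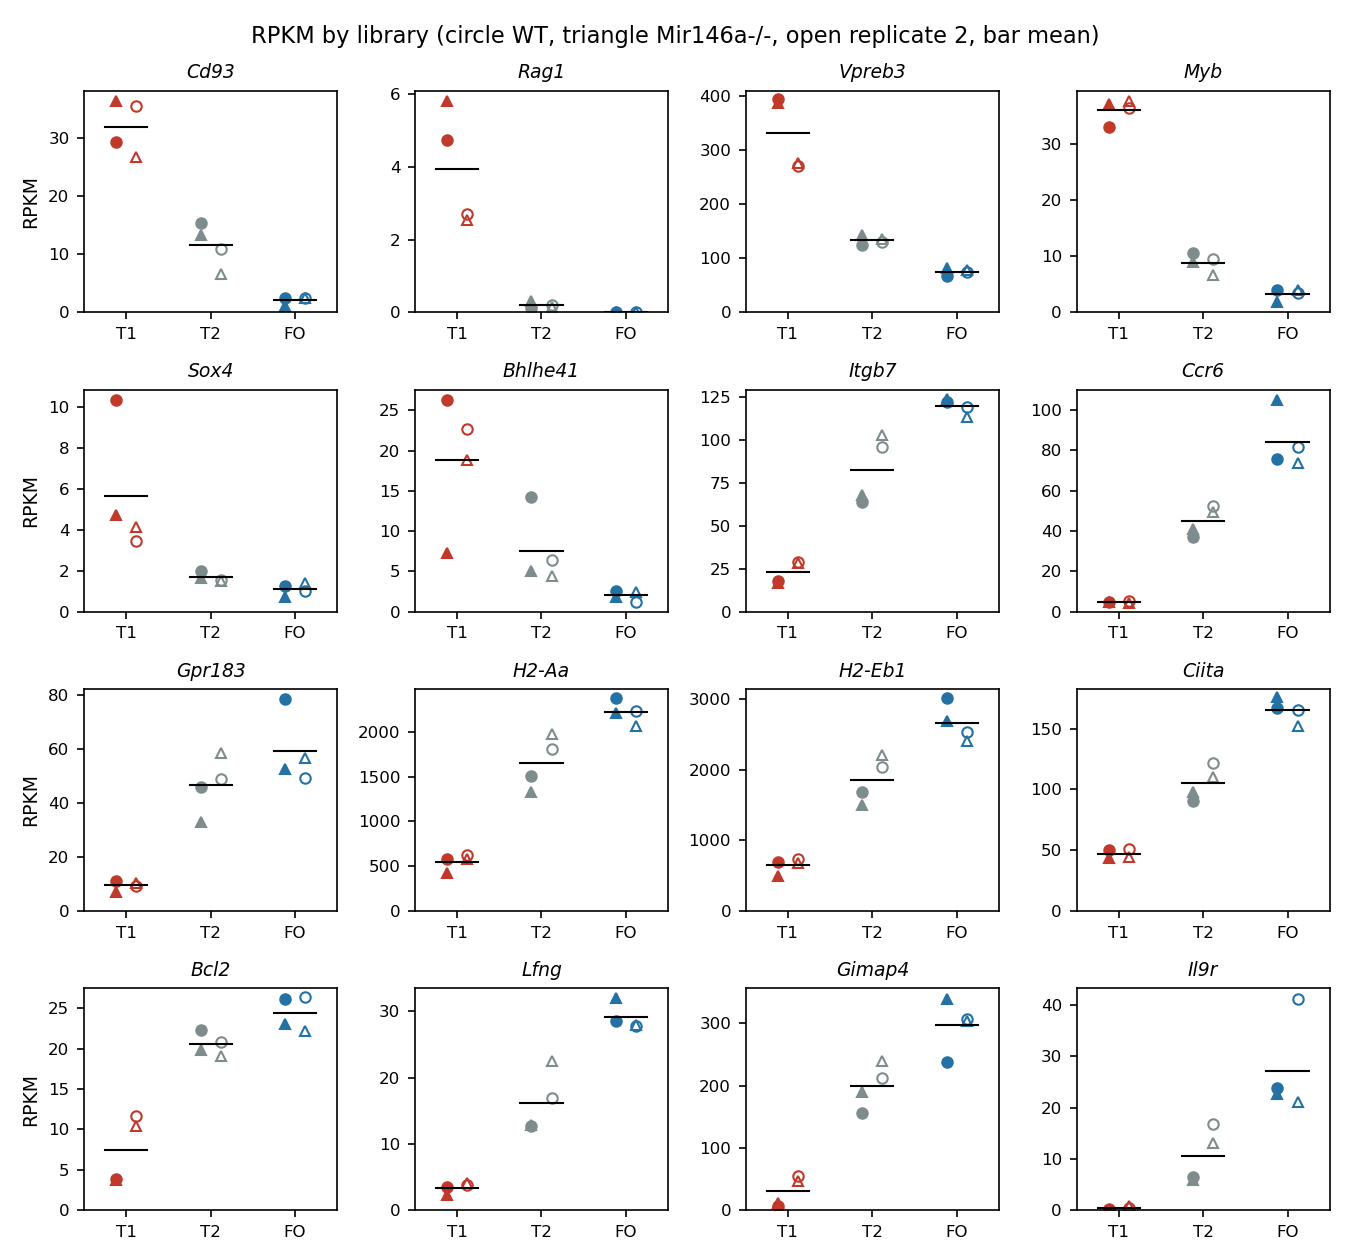
RPKM of 16 genes in each library (T1 red, T2 grey, FO blue; circles WT, triangles KO; open symbols replicate 2; bars the mean of 4). Cd93, Rag1, Vpreb3, Myb, Sox4 and Bhlhe41 are lower in FO and the other 10 genes higher, with T1 and FO symbols apart in all 16.

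Among 39 tested B-cell transcription factors, 3 were higher and 7 lower in FO (median -0.24). Zfp318, which is needed for IgD expression in mature B-cells, held 22.5 to 29.2 RPKM in T1, 57.4 to 62.7 RPKM in T2 and 74.3 to 76.9 RPKM in FO (1.58 ± 0.07, adjusted p = 2.68e-07). Lmo2, a partner of hematopoietic transcription factors, was higher by 1.60 ± 0.09 and Runx3 by 1.48 ± 0.11. Lower were Bhlhe41, a repressor known from B-1 cells (26.3, 22.7, 7.25 and 18.8 RPKM in T1, 1.19 to 2.63 RPKM in FO), Spib, an ETS factor (-1.51 ± 0.14), Cux1 (-1.20 ± 0.14, but -0.97 and under the limit without both T1 replicate 1 libraries), Id2, an inhibitor of E proteins, and the Myb, Sox4 and Arid3a genes above. Id2 libraries overlapped between stages, and its call was lost in many alternatives. These included no filter on low values (adjusted p = 0.0803) and several single libraries left out. Without both T1 replicate 2 libraries Id2 was at -0.91 (adjusted p = 0.194).

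Most MHC class II genes were higher in FO. Of 13 tested genes of class II presentation, 9 were higher and 0 lower (median 1.14). T1 and FO libraries did not overlap for 11 of the 13, beside 45.2% of all genes tested. H2-Aa, the alpha chain of I-A, held 577, 626, 429 and 576 RPKM in T1, 1511, 1807, 1333 and 1972 RPKM in T2 and 2381, 2235, 2214 and 2064 RPKM in FO (2.02 ± 0.15, adjusted p = 3.55e-06). H2-Eb1, the beta chain of I-E, rose by 2.04 ± 0.16 to 2412 to 3019 RPKM. Ciita, the transactivator that switches class II genes on (chr16:10480059-10528418, plus strand), stood at 49.7, 51, 43.8 and 44.1 RPKM in T1, at 90.2, 122, 97.9 and 111 RPKM in T2 and at 167, 166, 176 and 152 RPKM in FO (1.80 ± 0.09, adjusted p = 5.03e-07). All 3 genes kept the stages apart in every library.

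The promoters of the class II genes are shown because these genes moved together with Ciita, whose protein acts through a fixed set of promoter boxes. RefSeq (GRCm38.p6) promoters of 300 bases, from 250 before to 50 after the start, matched 7 of 10 genes looked up. The letters GATTGG, part of the Y box, and AGCAAC, part of the X box, were searched on both strands, and the motifs can share no more than an end base. GATTGG was in 7 of the 8 promoter entries of these genes and in 16.1% of all 32851 promoters. AGCAAC was in 3 of the 8 and in 14.8% of all. Below are 70 bases, 5′ to 3′ on the strand of the gene, of H2-Aa (chr17:34287853-34287922, minus strand), H2-Eb1 (chr17:34305757-34305826, plus strand), H2-Ob (chr17:34238797-34238866, plus strand) and H2-Oa (chr17:34092285-34092354, plus strand), with both motifs in capitals.
H2-Aa: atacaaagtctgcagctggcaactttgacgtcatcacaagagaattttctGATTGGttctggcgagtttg
H2-Eb1: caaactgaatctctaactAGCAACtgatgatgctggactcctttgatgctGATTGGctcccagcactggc
H2-Ob: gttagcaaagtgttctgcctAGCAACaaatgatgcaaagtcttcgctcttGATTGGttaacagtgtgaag
H2-Oa: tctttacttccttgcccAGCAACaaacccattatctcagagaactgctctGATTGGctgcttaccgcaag
GATTGG opens 49, 60, 58 and 44 bases before the start in these genes, and H2-Aa holds no AGCAAC in the window. A match describes letters and is no evidence of binding. The 4 genes differed in the size of their change. Against 2.02 for H2-Aa and 2.04 for H2-Eb1 (log2), H2-Oa, a subunit of the DM inhibitor DO, was higher by 1.66 ± 0.14, and H2-Ob, the other subunit, by 1.06 ± 0.08.

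Of the remaining class II genes, H2-Ab1 (1.65 ± 0.17) and the peptide editors H2-DMb1 (1.29 ± 0.11), H2-DMb2 (1.14 ± 0.10) and H2-DMa (1.09 ± 0.13) passed the 2-fold limit. Cd74, the invariant chain and the most abundant of the list, stood at 5585, 4595, 4012 and 4335 RPKM in T1 and at 8813, 7444, 7711 and 6970 RPKM in FO, a log2 difference of 0.75 ± 0.19 (adjusted p = 0.0095) that misses the 2-fold limit. With quantile normalization it was 1.36 and passed. The costimulatory genes Cd80 (-0.39) and Cd86 (-0.05) were not called, but Cd80 was called lower (-1.37) without both T1 replicate 1 libraries. H2-Ob was at 0.98, under the 2-fold limit, with median-ratio scaling and with immunoglobulin reads left out of the scaling.

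Of 21 tested homing receptors, which guide cells to follicles and other sites, 5 were higher and 1 lower in FO and 15 were not called (median 0.26). The lower count was 3 without both T1 replicate 1 libraries. Ccr7, the receptor that leads lymphocytes into lymph nodes, was among those not called (0.20, adjusted p = 0.712). Gpr183, an oxysterol receptor that positions B-cells in the follicle, went from 6.88 to 11.2 RPKM in T1 to 49.2 to 78.8 RPKM in FO (2.59 ± 0.19). Itgb7, an integrin chain of gut homing, was higher by 2.40 ± 0.21 and Cxcr5, the receptor for the follicular chemokine CXCL13, by 1.11 ± 0.09. The exception was S1pr3, a sphingosine-1-phosphate receptor, at 7.43 to 11 RPKM in T1 and 2.71 to 3.19 RPKM in FO (-1.51 ± 0.14). Of 11 tested follicular surface markers, a list that includes the sorted proteins, 5 were higher and 0 lower.

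GIMAP GTPases, small GTPases that act in lymphocyte survival, were higher in 5 of 8 tested members and lower in 0 (median 1.26). Libraries of T1 and FO did not overlap for 7 of the 8, beside 45.2% of all genes tested. Gimap4 (chr6:48684549-48692060, plus strand) stood at 5.99, 55.6, 11.9 and 46.4 RPKM in T1, at 156 to 239 RPKM in T2 and at 237 to 339 RPKM in FO (3.78 ± 0.57, adjusted p = 0.000361). Both T1 replicate 1 libraries were far below both replicate 2 libraries, yet all 4 lay under every T2 library. Its difference was 5.04 ± 0.20 without both T1 replicate 2 libraries and 2.52 ± 0.18 without both replicate 1 libraries. Gimap3, its neighbor on chromosome 6, rose by 3.06 ± 0.28 with the same order within T1, and Gimap7 by 2.08 ± 0.17. Gimap9 hardly differed (0.06).

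The BCL2 family, which sets the balance of cell survival and death, had 3 higher and 1 lower of 14 tested members (median 0.29). Bcl2 itself, an inhibitor of apoptosis (chr1:106538178-106714274, minus strand), held 3.9, 11.6, 3.77 and 10.4 RPKM in T1, 19.1 to 22.3 RPKM in T2 and 22.1 to 26.3 RPKM in FO (1.82 ± 0.31, adjusted p = 0.000759). Its difference was 2.52 ± 0.07 without both T1 replicate 2 libraries and 1.11 ± 0.06 without both replicate 1 libraries. The survival genes Bcl2a1b (2.02 ± 0.31) and Bcl2a1d (2.32 ± 0.45) were also higher, but they are near-identical copies whose unique reads may be split between them. Their differences were 2.66 and 3.24 without both T1 replicate 2 libraries and 1.38 and 1.39 without both replicate 1 libraries. Bmf, a promoter of apoptosis, was lower (-1.05 ± 0.13), a call that is lost with array weights (-0.93). It is also lost without WT T1 replicate 1 (-0.93), without KO T1 replicate 1 (-0.97) and without both (-0.78). Mcl1, another survival gene, was lower by 0.83 ± 0.13 (log2), under the 2-fold limit. Of 19 tested genes of BAFF receptors and NFkB, Traf1, a signaling adaptor, was higher (2.60 ± 0.33) and Tnfrsf17, the receptor BCMA, lower (-3.75 ± 0.62, and -2.49 ± 0.41 without both T1 replicate 2 libraries). The BAFF receptor list had a median of 0.19.

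B-cell receptor signaling genes had 2 higher and 2 lower of 26 tested members (median -0.08), close to the shares over all genes tested. Rasgrp3, an activator of Ras downstream of the receptor, stood at 23.6 to 27.7 RPKM in T1, 70.8 to 78.4 RPKM in T2 and 70.9 to 85 RPKM in FO (1.57 ± 0.07, adjusted p = 3.01e-07). Its relative Rasgrp1 stood at 91.7 to 125 RPKM in T1, 56.5 to 76.6 RPKM in T2 and 41.6 to 47.1 RPKM in FO (-1.29 ± 0.12). The Src-family kinase Fgr was higher by 1.26 ± 0.08. Among 15 tested inhibitory receptors and phosphatases, Lilrb4 was higher (1.29 ± 0.32), and Cd300a (-1.84 ± 0.17) and Ceacam1 (-1.12 ± 0.11) were lower. Lilrb4 and Ceacam1 were under the 2-fold limit, at 0.88 and -0.94, without both T1 replicate 1 libraries.

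The Notch pathway, which directs the split between marginal zone and follicular fate, had 4 higher and 0 lower of 20 tested genes (median 0.27). Notch2, its receptor in B-cells, held 42.9, 32.7, 38.2 and 35.1 RPKM in T1, 58.1 to 72.1 RPKM in T2 and 76.6 to 88.6 RPKM in FO (1.14 ± 0.10). Lfng, a glycosyltransferase that tunes Notch to its ligands, rose from 2.31 to 4.16 RPKM to 27.7 to 32 RPKM (2.94 ± 0.19), and Nrarp, a feedback target, from 0.104 to 0.673 RPKM to 1.61 to 1.95 RPKM. Dtx1, a target and regulator of Notch, stood at 14.3 to 22 RPKM in T1, at 14.6 to 30.4 RPKM in T2 and at 43.7 to 62.9 RPKM in FO (1.51 ± 0.21). T2 overlapped T1 and not FO for Dtx1, and the FO against T2 difference of 1.30 was called. Hes1, another Notch target, was at -0.90 and was not called, but passed the limit at -1.10 without both T1 replicate 2 libraries. Nrarp was under the limit, at 0.96, with a pseudocount of 1.

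Cytokine receptors moved both ways, with 3 higher and 3 lower of 22 tested (median 0.35). Beside Il9r, the interleukin-6 receptor gene Il6ra was higher, from 2.14 to 5.3 RPKM to 12.8 to 14.5 RPKM (1.85 ± 0.24), and Il27ra by 1.09 ± 0.11, or 0.98 and under the limit without both T1 replicate 1 libraries. Il2ra, which encodes CD25, fell from 6.94, 4.42, 8.55 and 4.71 RPKM in T1 to 0.365 to 0.594 RPKM in FO (-2.74 ± 0.23). Csf2rb, the common beta chain of the interleukin-3, interleukin-5 and GM-CSF receptors, was lower by 1.63 ± 0.14 and Il13ra1 by 1.48 ± 0.33. Il13ra1 was under the filter on low values when both T1 replicate 2 libraries were left out. Among 17 tested Toll-like receptors and partners, Tlr3 was higher (1.43 ± 0.20) and Ly96, the MD-2 partner of the endotoxin receptor, lower (-1.65 ± 0.20).

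Interferon-stimulated genes had 1 higher and 6 lower of 24 tested (median -0.33). The antiviral GTPase Mx1 held 22.1 to 30.1 RPKM in T1, 10.9 to 15.3 RPKM in T2 and 5.32 to 9.61 RPKM in FO (-1.86 ± 0.15), and its relative Mx2 was lower by 1.74 ± 0.16. In the oligoadenylate synthetase family, Oas2 was lower by 1.23 ± 0.14 while Oas3, of the same gene cluster, was higher by 1.47 ± 0.15. Their libraries did not overlap between T1 and FO in either gene.

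Of 40 tested cytosolic ribosomal protein genes, 8 were called higher and 0 lower in FO (median 0.81). All 40 were above 0 without overlap of T1 and FO libraries, beside 45.2% without overlap among all genes tested. The number called was 17 without both T1 replicate 2 libraries and 1 without both replicate 1 libraries. Rpl13 stood at 125, 153, 97.4 and 150 RPKM in T1 and at 296 to 338 RPKM in FO (1.27 ± 0.17), and Rps2 was higher by 1.21 ± 0.18, below the limit at 0.90 without both T1 replicate 1 libraries. Ribosomal protein genes have many near-identical processed copies, so that uniquely aligned reads may undercount them. Across alternatives the number called ran from 1 to 19 and the median from 0.62 to 0.98. Glycolysis and glucose transport had 5 higher and 0 lower of 22 tested (median 0.53), among them the transporter Slc2a6 (2.18 ± 0.28), the aldolase Aldoc (1.83 ± 0.20), the regulator Pfkfb4, at 3.42 to 3.8 RPKM in T1 and 11.4 to 12 RPKM in FO, and the enolase Eno1 (1.07 ± 0.10). Eno1 was under the limit with median-ratio scaling (0.99), with immunoglobulin reads left out of the scaling (0.99) and without both T1 replicate 1 libraries (0.96). Pfkfb3, a regulator of the same family as Pfkfb4, was at -0.85 ± 0.10 (adjusted p = 9.9e-05), under the 2-fold limit. Oxidative phosphorylation had 0 called of 33 tested (median 0.04). Of 25 tested genes of cholesterol synthesis and uptake, 3 were higher and 0 lower, among them Abca1, a cholesterol exporter (1.75 ± 0.08), and Sqle, a synthesis enzyme (1.02 ± 0.22). Sqle lost its call in 8 alternatives, with 0.80 without both T1 replicate 2 libraries and 0.95 with median-ratio scaling.

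Cell cycle genes depended on which T1 libraries were used. Of 27 tested genes of cell cycle and DNA replication, 0 were higher and 3 lower in FO (median -0.65). The summed level of 28 such genes was 203, 287, 193 and 384 RPKM in T1 and 184 to 214 RPKM in FO, so only both T1 replicate 2 libraries lay above the FO range. Without them the median was 0.47 with 2 higher and 1 lower of 22 tested, and without both replicate 1 libraries it was -1.25 with 16 lower. E2f2, a transcription factor of cycle entry, was the member that did not depend on this, at 62.8, 57, 73.4 and 57.7 RPKM in T1 and 14.6 to 17 RPKM in FO (-1.93 ± 0.11, and -2.05 ± 0.12 without both T1 replicate 2 libraries). E2f1, a further factor of cycle entry (-1.01 ± 0.16), and Bub1b, of the spindle checkpoint (adjusted p = 0.0186), fell under the limit without both T1 replicate 2 libraries, at -0.82 and -0.40. Each also lost its call with a pseudocount of 1 and with some single T1 or FO libraries left out. Mki67, a proliferation marker, was at -1.34 (adjusted p = 0.147) and at 0.19 without those libraries. Among 20 tested D cyclins, cyclin-dependent kinase inhibitors and Myc partners, Ccnd2, which encodes cyclin D2, was lower (-1.14 ± 0.16). Myc was called higher (1.21 ± 0.42, adjusted p = 0.0383) with overlapping libraries, and it lost its call in several alternatives (adjusted p = 0.307 without both T1 replicate 1 libraries).

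The immunoglobulin share of reads and the summed plasma cell genes were also higher in both T1 replicate 2 libraries than in both replicate 1 libraries. Of 8 tested immunoglobulin constant regions, 0 were higher and 4 lower in FO (median -1.43). Ighm, the constant region of IgM, stood at 11196, 29337, 15967 and 35988 RPKM in T1, 4540 to 4806 RPKM in T2 and 3556 to 3978 RPKM in FO (-2.45 ± 0.34, adjusted p = 0.000209). Without both T1 replicate 2 libraries it was lower by 1.81 ± 0.18 (log2, adjusted p = 0.000106), and with no filter on low values its adjusted p was 0.17. IgM was part of the gate. Igkc, the kappa constant region, was lower by 1.90 ± 0.39, or by 1.17 ± 0.22 without those libraries, and with quantile normalization by 0.18 (adjusted p = 0.642). Iglc2, a lambda constant region, was lower by 1.37 ± 0.18. Ighg2c, of IgG2c, was called (adjusted p = 0.0401) although T1 and FO libraries overlapped. Unlike the constant regions above, it differed more without both T1 replicate 2 libraries (-2.61) than without both replicate 1 libraries (-1.55, adjusted p = 0.224). Its call was lost in many alternatives.

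Of 12 tested genes of the plasma cell program, 6 were lower and 0 higher (median -1.25), and their summed level was 952, 3629, 1604 and 4764 RPKM in T1, 327 to 449 RPKM in T2 and 313 to 370 RPKM in FO. Prdm1, which encodes the plasma cell factor Blimp-1, held 2.35, 10.5, 2.43 and 10.3 RPKM in T1 and 0.481 to 0.807 RPKM in FO (-2.39 ± 0.44). Xbp1, a factor of the secretory pathway, was lower by 1.38 ± 0.28 and Edem1, of protein quality control in the endoplasmic reticulum, by 1.39 ± 0.10. Tnfrsf17 had 424 reads over the T1 libraries and 1 over the FO libraries, a ratio of 790 per mapped read (95% counting interval 141 to 31264). Cd28, a costimulatory receptor known from long-lived plasma cells, was called with overlapping libraries (adjusted p = 0.0173) and was under the filter on low values when both T1 replicate 2 libraries were left out. Without both T1 replicate 2 libraries 4 of 11 tested members were lower (median -0.48), and Prdm1 was lower by 1.43 ± 0.21 while Xbp1 was at -0.79. Without both replicate 1 libraries 11 of 12 were lower. In the replicate 1 libraries alone the plasma cell sum was still above the FO range. Much of the sum in T1 is Igj, described above. The part of plasma cells in the T1 values was not tested.

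Markers of other cells were checked beside these groups. Of 14 tested macrophage and monocyte markers, Ly6c2 was lower in FO (-2.70 ± 0.49, or -1.67 ± 0.29 without both T1 replicate 2 libraries) and the others were not called. Their median was -0.76 with all libraries, 0.13 without both T1 replicate 2 libraries and -1.61, with 9 lower, without both replicate 1 libraries. Ly6c2 has a near-identical neighbor and is uncertain. The summed level of 10 NK cell markers was 1.13, 10.3, 2.44 and 14.6 RPKM in T1 and 5.09 to 11.4 RPKM in FO, and that of 12 marginal zone markers was 393, 708, 409 and 731 RPKM in T1 and 478 to 595 RPKM in FO. No gene of 6 tested neutrophil, 5 NK cell or 3 dendritic cell markers was called between T1 and FO. The summed level of 10 neutrophil markers was 5.12 to 56.6 RPKM in T1, 36.6 to 68.6 RPKM in T2 and 0.791 to 25.4 RPKM in FO. Of 12 tested T cell markers, Cd8b1 alone was called (1.07 ± 0.40, adjusted p = 0.0488, with overlapping libraries). It lost its call in many alternatives, with 0.34 without both T1 replicate 1 libraries. The sum of T cell markers was 128 to 172 RPKM in T1 and 143 to 163 RPKM in FO. Most of that sum is Cd2, which B-cells also express. Without both T1 replicate 2 libraries 8 T cell and 2 NK cell markers were called higher, and without both replicate 1 libraries 0 of either. Erythroid markers had 1 higher of 4 tested, Car2, a carbonic anhydrase (1.72 ± 0.18), with hemoglobin genes not called. No platelet marker passed the filter on low values. B-1 markers had 2 lower of 9 tested, Bhlhe41 and the scramblase family gene Plscr1 (-1.23 ± 0.24, but -0.84 without both T1 replicate 2 libraries), and marginal zone markers had 4 higher, Cr2 and Dtx1 among them, and 1 lower of 11. Leaving out both T1 replicate 1 libraries gave 7 lower B-1 markers, and 3 higher and 4 lower marginal zone markers. Immediate early genes, which respond to handling and stimulation within minutes, ranged from 558 to 5546.5 RPKM in sum within T1 alone, and Egr1 was called lower with overlapping libraries (14.9 to 444 RPKM in T1, adjusted p = 0.0406). That call was lost in many alternatives, among them a fit of all 16 libraries (adjusted p = 0.0653) and several single libraries left out. Without both T1 replicate 2 libraries its adjusted p was 0.181. The demethylase gene Tet1 was the only one called of 21 tested histone and chromatin genes (-1.12 ± 0.17), and it was at -0.96, under the limit, without both T1 replicate 1 libraries. What part such cells or handling had in the called genes was not tested.

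T2 cells lay nearer to FO than to T1. The first principal component of the 12 libraries held 47.9% of the variance and placed T1 at -46.1 to -41.4, T2 at 1.99 to 18.8 and FO at 31.3 to 35.8, with no overlap. On it, each T2 library was closer to its nearest FO library than to any T1 library. For each called gene the T2 position was taken as the share of the T1 to FO distance in mean log2 level that T2 had covered, 0 at T1 and 1 at FO. Its median was 0.683 over 1171 called genes, 0.672 for those higher and 0.690 for those lower in FO, and 0.657 within WT and 0.705 within KO libraries. The mean of T2 lay between the ends for 1076 genes (91.9%) and nearer FO for 948 (81.0%). For 519 genes all 4 T2 libraries lay between all T1 and all FO libraries. The position is a description without a test, since it divides values of the same libraries that chose the genes.

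**Figure D4:**
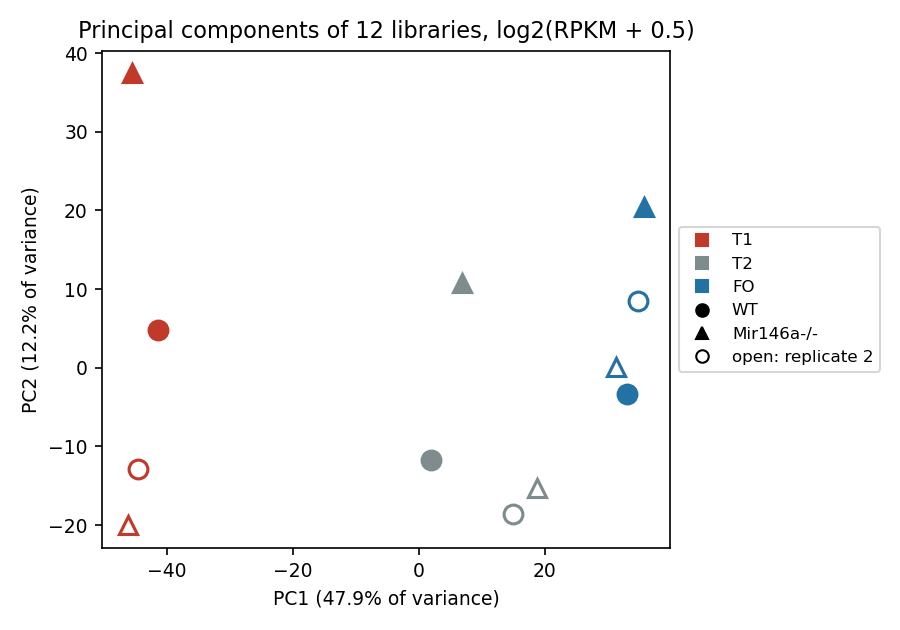
Principal components 1 and 2 of 12 libraries (color for stage, circles WT, triangles KO, open symbols replicate 2), with the percent of variance on each axis. PC1 orders the stages, T1 at -46.1 to -41.4, T2 at 1.99 to 18.8 and FO at 31.3 to 35.8, whereas PC2 (12.2%) spreads libraries within a stage.

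The step from T1 to T2 held more calls than the step from T2 to FO. T2 against T1 gave 279 higher (2.39%) and 389 lower genes (3.33%), 668 in all (5.72%), and FO against T2 gave 52 higher (0.445%) and 88 lower (0.753%), 140 in all (1.2%). These comparisons share libraries with each other and with FO against T1. Of the 1171 genes called between FO and T1, 590 (50.4%) were called in the same direction from T1 to T2, 95 (8.11%) from T2 to FO, 53 in both steps and 539 in neither. Leaving out both T1 replicate 2 libraries gave 446 higher and 375 lower genes in the first step, and leaving out both replicate 1 libraries gave 224 and 566. The number called from T2 to FO depended on single libraries. It fell to 7 higher and 29 lower genes when KO FO replicate 1 was left out, and to 11 and 37 when WT T2 replicate 1 was. Omitting WT FO replicate 1 gave 12 and 41, omitting WT FO replicate 2 gave 21 and 62, and omitting KO T2 replicate 1 gave 17 and 54. Under each of these the T1 to T2 step still held at least 238 higher and 340 lower genes.

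**Figure D5:**
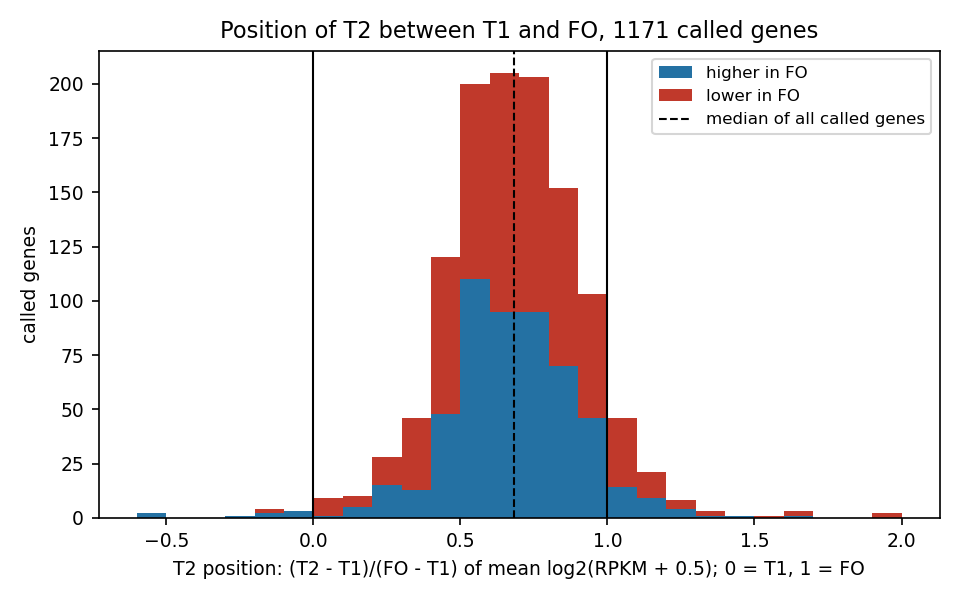
Number of called genes by T2 position, in steps of 0.1, with genes higher in FO in blue and lower in red, solid lines at T1 (0) and FO (1), and the median of 0.683 dashed. Most genes lie between the lines and right of the middle, and values beyond the axis are drawn in its end bins.

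Genes differed in when they moved. Fcer2a (0.984, whose protein was part of the gate), Gpr174 (0.995), Lmo2 (0.97), Rasgrp3 (0.973) and Gimap7 (0.967) had nearly reached the FO level in T2. The falls of Oosp1 (0.972), a gene named for oocytes, and Derl3 (1.14), of protein quality control in the endoplasmic reticulum, were also nearly or fully complete. Both had their highest levels in T1 replicate 2. Without both of these libraries the FO against T1 differences fell in size from -2.41 to -1.15 for Oosp1 and from -2.57 to -1.73 for Derl3. MHC class II genes lay between the ends but nearer FO, with positions of 0.585 to 0.819 for the 9 called members (median 0.727). Lifr, the receptor of leukemia inhibitory factor, had a position of 0.307, the lowest of a protein-coding gene among those beyond 4-fold without overlap, at 7.42, 4.64, 5.88 and 4.12 RPKM in T1, 4.16, 2.54, 5.05 and 1.85 RPKM in T2 and 0.698 to 0.828 RPKM in FO. Lrrc32, which anchors latent TGF-beta, had a position of 0.31, and Dtx1 one of 0.136. Cd93 (0.406), Cplx2 (0.467), 1100001G20Rik (0.396) and Shank1 (0.45) also had the larger part of their change after T2. The 2 lowest positions beyond 4-fold were those of short noncoding genes, Gm23935 (-0.216) and Gm25104 (0.28), a miRNA and a snRNA gene by annotation. Gm23935 stood at 1763, 208, 218 and 211 RPKM in T1 and lost its call without both T1 replicate 2 libraries (adjusted p = 0.0648), and Gm25104 rested on 0 to 3 reads in a T1 library. Kits that select polyadenylated RNA measure such transcripts poorly.

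Few genes left the path between both ends. All 4 T2 libraries lay above every T1 and FO library for 237 genes (2.03% of those tested) and below for 82 (0.702%), and 4 of them passed the test in both steps. Vcam1, an adhesion molecule that splenic macrophages express, held 0.164, 1.97, 0.237 and 2.47 RPKM in T1, 4.18, 3.39, 3.04 and 5.95 RPKM in T2 and 0.0558, 0.577, 0.119 and 0.689 RPKM in FO. It is a member of the macrophage list, whose sum was 69.5 to 129 RPKM in T2, and the part of macrophages in it was not tested. Its T1 to T2 step was not called without both T1 replicate 1 libraries (0.74 ± 0.35, adjusted p = 0.158). Gm26388, above both ends as well, rested on at most 2 reads in any T1 or FO library. Terc, the RNA of telomerase, was at 0, 0, 0.197 and 0.336 RPKM in T2, against 0.68 to 1.48 RPKM in T1 and 0.717 to 2.01 RPKM in FO, and its T1 to T2 call was lost without both T1 replicate 1 libraries because neither mean then passed 1 RPKM. The other gene below both ends was an immunoglobulin segment.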

How the data were processed

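mRNA of sorted splenic B-cells was measured by RNA-Seq in 16 libraries, of which the 12 of T1, T2 and FO cells were used. Total RNA was made into libraries with a kit that does not keep strand, so overlapping genes on opposite strands cannot be told apart. Per the study's methods, the authors removed low-quality and adapter reads, mapped the rest with TopHat (UCSC mm10), left out reads with more than 1 location and deposited RPKM values per gene and library, normalized for gene length and mapped reads. No source used here gives tool versions. The submitters' processing notes also name DESeq and edgeR.

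The table held 38355 genes, of which 15161 were at 0 in every library. The values of the other 23194 genes gave whole reads within 0.01, so read totals could be recovered for each library. Of the gene identifiers, 36602 (95.4%) were in the GENCODE annotation used for locations on GRCm38. Precision is limited by 2 libraries per genotype and stage, each of pooled mice. Counting intervals cover counting error only.

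Genes with a mean above 1 RPKM in at least 1 of the 3 stages were tested on log2(RPKM + 0.5) with limma 3.58.1 (R 4.3.3, trended variance), with stage and genotype as terms, and p-values were adjusted by Benjamini-Hochberg over all 11685 genes. A call needed an adjusted p under 0.05, a log2 difference beyond 1 and a mean above 1 RPKM in a compared stage. The genotype interaction was tested without the fold criterion. Summaries and plots used Python 3.11.15, numpy 2.4.6, pandas 2.3.3 and matplotlib 3.10.9. The procedure was tested on simulated data.

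Named genes were the 12 largest rises and 12 largest falls without overlap, leaving out V, D and J segments, the 4 lowest and 4 highest T2 positions beyond 4-fold, genes of T2 outside both ends called in both steps, the sort markers and members of 35 gene lists. Other list members named were chosen after their values were seen. Some genes that these rules name are not reported here, though counts include them. The comparison, genes and lists were chosen with earlier results of these data known. Alternatives were the pseudocount, filters, scaling, the libraries fitted, array weights, a replicate block, limma-voom and each library left out. Leaving out both T1 replicate 2 or both replicate 1 libraries, and scaling without immunoglobulin reads, were chosen after seeing the data. Replicate numbers were checked as pairs by the correlation of deviations from the group means, which was 0.315 in WT and 0.312 in KO between T1 and FO, 0.138 and 0.422 between T1 and T2, and 0.0722 and 0.210 between T2 and FO. No source says what a shared number marks.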

Additional observations from a re-analysis of the deposited data

How the results depend on the processing

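Lower genes outnumbered higher ones for FO against T1 and T2 against T1 except without both T1 replicate 2 libraries (733 higher and 635 lower, 446 and 375) and without the 2-fold criterion. FO against T1 gave 422 to 733 higher and 535 to 785 lower genes wherever the 2-fold criterion was kept. Without that criterion FO against T1 held 3249 higher and 2098 lower genes, T2 against T1 2137 and 1295, and FO against T2 804 and 809. With no filter on low values FO against T2 fell to 25 higher and 58 lower genes and the interaction held 19. Array weights gave 106 and 138 for FO against T2 and 1 interaction gene, limma-voom 138 lower genes for FO against T2, and quantile normalization 1 interaction gene. Without both T1 replicate 2 libraries the interaction held 3 genes, and without both replicate 1 libraries the interaction had 5. The causes were not tested.

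Leaving out 1 library at a time gave 494 to 612 higher and 600 to 680 lower genes for FO against T1, 238 to 339 and 340 to 432 for T2 against T1, 7 to 76 and 29 to 112 for FO against T2, 0 to 3 interaction genes and a median T2 position of 0.649 to 0.718. A replicate block, pairing libraries by genotype and replicate number, gave 552 higher and 653 lower genes for FO against T1, 308 and 406 for T2 against T1 and 68 and 132 for FO against T2, and changed no count by more than 1.5 times. Over 118 of the named genes and all alternatives, 2958 of 3066 values kept their direction and side of the threshold and 0 turned sign. Of these genes, 25 changed side in some alternative. Named genes outside the 118 are not counted, among them Mki67, Vcam1, Cd80 and Hes1. Without both T1 replicate 2 libraries Mki67 and Vcam1 turned sign and Hes1 was called. Cd80 was called without both T1 replicate 1 libraries. T1 and T2 libraries were shallower than FO libraries, so a gene of few reads is measured least well in T1.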
